A study of Mus musculus with 6 samples.

Results

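The intermediate filament genes described here were the simple keratins Krt7, Krt8, Krt18, Krt19 and Krt80, the type III genes Vim (vimentin) and Des (desmin), the type IV gene Nes (nestin), and the lamin genes Lmna and Lmnb1. These 10 genes, of 55421 genes in the deposited count table, were chosen by symbol, and the choice was made from the measured difference between Ddit4-deficient and wild-type leukemia cells. Their levels and fold changes between these genotypes are therefore given as a description, with no p-value. Where such a gene is said to be called or not past the threshold, this is its place in the fit across all genes and supports nothing about it. Of the 10, 9 had enough counts to enter the fit across 18375 genes, and Krt19 had 0 counts in all 6 libraries.

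The libraries came from AE9a leukemia cells of C57BL/6 mice. AE9a is AML1-ETO9a, a splice form of the t(8;21) fusion, delivered by retrovirus together with GFP into c-Kit+ hematopoietic stem and progenitor cells from the marrow of Ddit4+/+ or Ddit4-/- donors of the same stated age range. Both groups therefore carried AE9a and GFP, passed through irradiated C57BL/6 recipients, and differed by the germline Ddit4 deletion of the donor, while retroviral insertion sites and the number of founding clones are not given. Bone marrow leukemia cells were kept in IMDM with FBS, and 3 AE9a-Ddit4+/+ and 3 AE9a-Ddit4-/- libraries were sequenced. The cells are described as taken from the marrow of transplanted mice, with as many mice as libraries in each group. The labels tie no library to a mouse, and whether the mice received cells of separate donors or of the same leukemia is not stated. In the paper's primary transplant cohort fewer knockout recipients became leukemic than there are knockout libraries here. If that cohort was the source, not all knockout libraries came from separate primary leukemias. The p-values therefore measure the spread among these libraries.

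Intermediate filaments are flexible cytoskeletal ropes built from coiled-coil proteins. Keratin filaments need a partner from each class, a type I chain such as Krt18 or Krt19 with a type II chain such as Krt7, Krt8 or Krt80, and Krt8 with Krt18 is the first pair made in simple epithelia. Vimentin is the usual cytoplasmic filament of blood and mesenchymal cells, desmin that of muscle, and nestin a co-polymer of progenitor, endothelial and regenerating cells, whereas lamins line the nuclear envelope of nearly every cell.

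Krt7, Krt8, Krt18 and Krt80 lie in the type II keratin cluster of chromosome 15, in which Krt18 is the type I exception. The promoter stretches of the 3 keratins with the highest folds and of Vim are shown because the keratins went from near 0 counts to a readily counted level while Vim was abundant in both groups. Each is 280 bases of GRCm38.p6 from RefSeq, from 250 bases before the RefSeq start to 30 bases into the transcript, read along the gene's strand. Krt18 is chr15:102027966-102028245 (plus strand), Krt8 chr15:102004313-102004592 (minus strand), Krt7 chr15:101412153-101412432 (plus strand) and Vim chr2:13574061-13574340 (plus strand). Capitals mark matches, on either strand, to the following letters: TATAAA as the TATA box, AGATAA for GATA factors, TGTGGT for the core Runx site, CCAAT as the box of that name, GGGCGG as the GC box, TGACTCA for AP-1, and CTTCCT for Ets factors.
Krt18: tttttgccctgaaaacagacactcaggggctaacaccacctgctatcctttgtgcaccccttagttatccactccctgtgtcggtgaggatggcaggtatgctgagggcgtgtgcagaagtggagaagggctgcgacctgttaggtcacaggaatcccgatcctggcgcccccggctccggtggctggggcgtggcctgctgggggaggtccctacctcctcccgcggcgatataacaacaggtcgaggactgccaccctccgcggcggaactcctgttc
Krt8: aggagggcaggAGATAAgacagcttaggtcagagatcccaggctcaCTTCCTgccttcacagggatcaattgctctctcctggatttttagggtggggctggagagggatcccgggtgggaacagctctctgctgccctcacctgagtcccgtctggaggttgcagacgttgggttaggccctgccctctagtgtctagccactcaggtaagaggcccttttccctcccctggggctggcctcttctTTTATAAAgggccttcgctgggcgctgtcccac
Krt7: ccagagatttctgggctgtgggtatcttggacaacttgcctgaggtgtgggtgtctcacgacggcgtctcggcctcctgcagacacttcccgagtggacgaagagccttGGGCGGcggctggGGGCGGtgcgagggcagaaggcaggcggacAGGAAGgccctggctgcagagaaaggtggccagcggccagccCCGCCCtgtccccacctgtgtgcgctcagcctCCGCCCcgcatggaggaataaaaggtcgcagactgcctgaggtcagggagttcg
Vim: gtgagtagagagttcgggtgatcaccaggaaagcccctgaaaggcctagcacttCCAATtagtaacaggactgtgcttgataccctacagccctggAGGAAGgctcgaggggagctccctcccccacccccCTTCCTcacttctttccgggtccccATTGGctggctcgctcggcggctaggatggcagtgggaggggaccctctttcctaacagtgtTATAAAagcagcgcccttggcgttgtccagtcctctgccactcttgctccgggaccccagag

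The Krt18 stretch held none of these 7 sets of letters. The Krt8 stretch held AGATAA at position -239, CTTCCT at -204 and overlapping TATAAA matches on both strands at the RefSeq start, where position -1 is the last base before it. The Krt7 stretch held 4 GGGCGG matches between -141 and -24 and 1 CTTCCT match, and the Vim stretch held TATAAA at -32, 2 CCAAT matches and 2 CTTCCT matches. Among 32851 RefSeq promoters of the same length, 13.1% held TATAAA, 10.7% AGATAA, 15.6% TGTGGT, 36.1% CCAAT, 34.7% GGGCGG, 4.94% TGACTCA and 32.9% CTTCCT. The ratio of observed to expected CpG was 0.568 for Krt18, 0.606 for Krt7, 0.368 for Vim and 0.208 for Krt8, against a median of 0.382 over all promoters. A match describes the letters in the window, and no factor's binding was measured.

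Total counts ran from 62245767 to 64597820 in AE9a-Ddit4+/+ libraries and from 62141558 to 72717681 in AE9a-Ddit4-/- libraries. Ddit4 was at 161 to 342 CPM (counts per 1000000 counts, scaled by TMM factors) in the former and 77.7 to 85.9 CPM in the latter. The knockout libraries thus still held reads of the gene. These reads measure RNA, whereas the paper reports by western blot that the protein was absent from AE9a-Ddit4-/- leukemia cells. Mitochondrial reads made up 5.03% to 7.91% against 11.3% to 16.5%. The Y-linked gene Ddx3y was at most 0.0774 CPM in AE9a-Ddit4+/+ libraries and 88.2 to 125 CPM in AE9a-Ddit4-/- libraries, and Xist was at 566 to 1032 against 20.3 to 129 CPM, so sex and genotype cannot be told apart. All 10 hematopoietic markers, Ptprc, Spi1 and Runx1 among them, exceeded 1 CPM in both groups, with summed levels of 2798 to 3326 and 3137 to 3699 CPM.

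Of the 9 genes tested, 6 (Krt7, Krt8, Krt18, Krt80, Des and Nes) were called higher in AE9a-Ddit4-/- cells, and 0 were called lower. Over all genes tested 19.4% were called higher and 10.7% lower at an edgeR adjusted p below 0.05, and DESeq2 called 6 and 0 of the 9. The same 6 genes had every AE9a-Ddit4-/- library above every AE9a-Ddit4+/+ library, a pattern that 27.9% of all genes showed, and 0 had the reverse, which 22.2% showed. Since the 10 genes were picked from this contrast, nothing is read from these counts. Krt7, Krt8 and Nes passed the filter on low counts through the knockout libraries alone, and of the 6 genes that reached 10 counts in each of the libraries 3 were called higher. Of all 14269 genes that reached 10 counts in each library, 2123 were called higher and 1779 lower, with a median log2 fold change of -0.10. The median log2 fold change of the 9 genes was 2.57, against 0.04 over all genes tested.

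**Figure D1:**
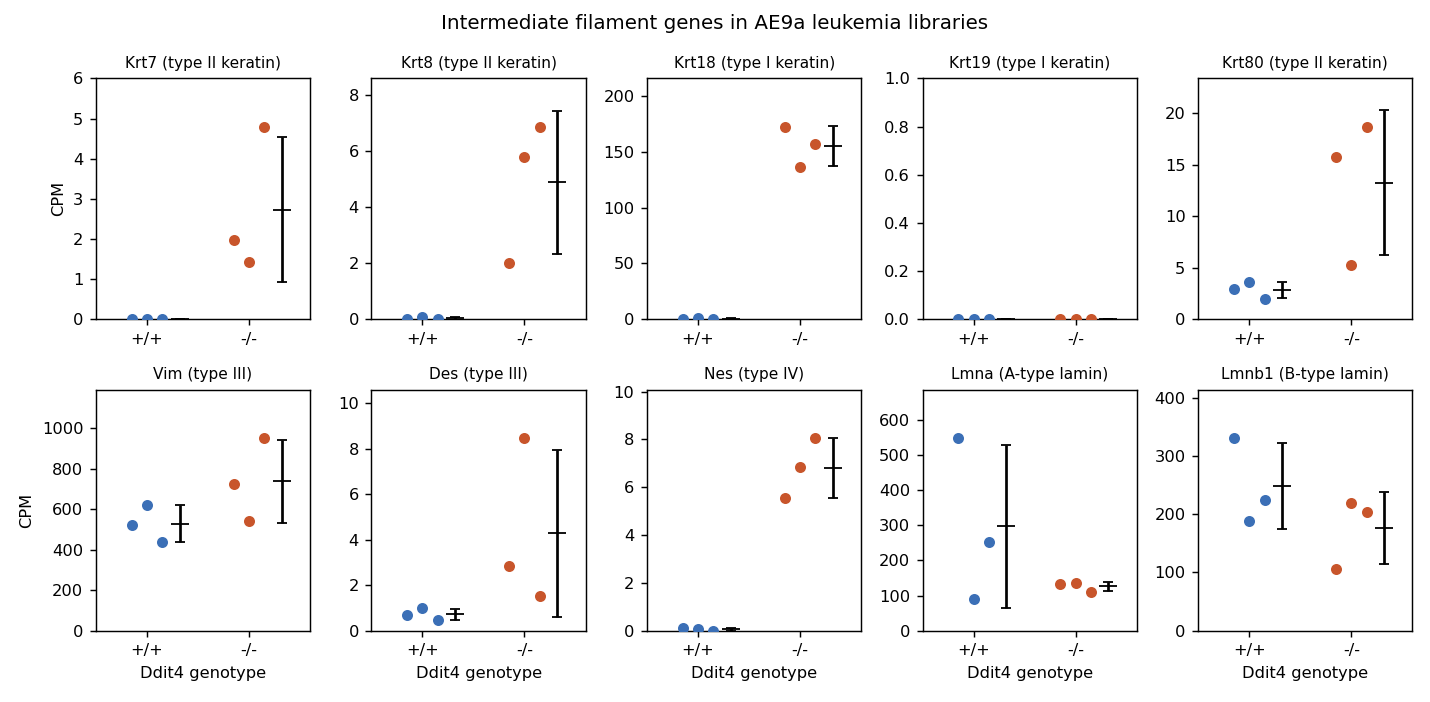
Each panel plots the CPM of a gene on its own linear axis, with 1 point per library (blue, AE9a-Ddit4+/+; orange, AE9a-Ddit4-/-) and the mean with its SD to the right of the points. Krt18 stood at 137 to 173 CPM in the knockout libraries and at most 0.604 CPM in wild type, whereas the Vim, Lmna and Lmnb1 points of the genotypes overlapped.

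Krt18 (ENSMUSG00000023043, chr15:102028180-102032027, plus strand), the type I chain of simple epithelia, had the highest fold difference that could be measured among the 10 genes. It was at 0.380, 0.604 and 0.248 CPM in AE9a-Ddit4+/+ replicates 1 to 3, from 24, 41 and 16 counts. In AE9a-Ddit4-/- replicates 1 to 3 it was at 173, 137 and 157 CPM, from 10746, 8297 and 11543 counts. The groups did not overlap, and the knockout libraries differed among themselves by 1.26-fold at most. Mean levels were 0.411 ± 0.180 and 155 ± 18.1 CPM (SD, n = 3 each), a 379-fold difference of means, and the fitted log2 fold change was 8.55 (SE 0.39).

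Krt8 (ENSMUSG00000049382, chr15:101996698-102004482, minus strand), the type II partner of Krt18, had 0, 5 and 0 counts in wild type. It had 124, 351 and 506 counts in the knockout libraries, or 1.99, 5.78 and 6.88 CPM. Few fragments were behind the wild-type values: low counts in these libraries piled up at multiples of 4, so the floor was set at 12 counts per library, 3 fragments of 4 counts each, or 0.163 to 0.198 CPM. Against that floor Krt8 was at least 26.5-fold higher in AE9a-Ddit4-/- cells, with the lowest value in replicate 1. A processed Krt8 pseudogene on chromosome 7 had at most 9 counts in any library.

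Krt7 (ENSMUSG00000023039, chr15:101411043-101430313, plus strand), a type II keratin of ducts and glands, had 0 counts in each wild-type library. Its knockout counts were 123, 86 and 353, or 1.98, 1.42 and 4.80 CPM. This was at least 14.8-fold higher against the floor, and at least 9.21-fold without AE9a-Ddit4-/- replicate 3, the library that held the most Krt7 counts. Krt19, a type I keratin of ducts and of many simple epithelia, had 0 counts in every library, a result below the floor of 12 counts in each.

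Krt80 (ENSMUSG00000037185, chr15:101347444-101370162, minus strand), a type II keratin found in many epithelia, was the only simple keratin with over 100 counts in every library. Its levels were 2.93, 3.57 and 1.996 CPM in wild type and 15.7, 5.27 and 18.7 CPM in knockout libraries. The groups did not overlap, with knockout replicate 2 nearest to wild type, and the fitted log2 fold change was 2.22 (SE 0.53). The gene was no longer called without knockout replicate 1 (2.09), knockout replicate 3 (1.83), wild-type replicate 1 (2.25) or wild-type replicate 3 (2.02). The antisense gene Gm35853 overlaps Krt80 and had 9 to 63 counts, and because strand use in counting is not given, reads of the pair cannot be told apart. The antisense gene over Krt7 and the noncoding gene over Krt8 had at most 12 counts in any library.

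Levels of different genes were compared per length, as counts per kb of exon scaled to sum to 1000000 in each library. On this scale Krt18 was at 279, 174 and 242 in the knockout libraries and Krt8 at 2.36, 5.41 and 7.79. The Krt18 level was thus 118, 32.2 and 31.1 times that of Krt8, a mean of 60.5 ± 49.9 (SD, n = 3) that was 31.6 without replicate 1. The partners of this pair were therefore far from equal in each knockout library. Type I level (Krt18 and Krt19) over type II level (Krt7, Krt8 and Krt80) was 0.577, 0.706 and 0.552 in wild type, where Krt80 supplied nearly all of the type II level of these genes. It was 31.99, 23.9 and 15.4 in knockout libraries. Krt18 made up 35.6% to 41.4% of the summed simple keratin level in wild type and 93.9% to 97.0% in knockout, while that sum itself was 1.22 to 2.51 against 181 to 287.

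**Figure D2:**
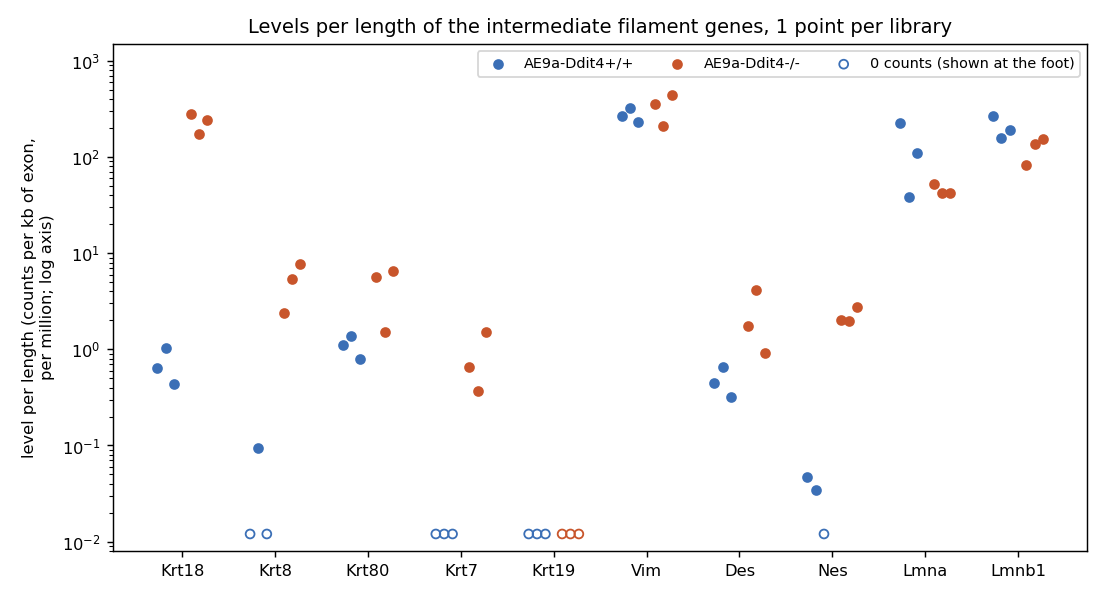
The plot shows counts per kb of exon, scaled as in the text, on a log axis, with 1 filled point per library (blue, AE9a-Ddit4+/+; orange, AE9a-Ddit4-/-), and open points at the foot for 0 counts. In the knockout libraries the range of Krt18 (174 to 279) overlapped that of Vim (209 to 444) and lay above that of Lmnb1 (83.2 to 153), whereas Krt8 reached 7.79.

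Among the 10 genes in wild type the mean levels per length ran from Vim (274 ± 45.5, SD, n = 3) through Lmnb1 (205 ± 56.2) and Lmna (124 ± 94.1) to Krt80 (1.09 ± 0.295), Krt18 (0.702 ± 0.308) and Des (0.472 ± 0.165). The ranges of these neighbours overlapped over the libraries. Compared within each wild-type library, Lmnb1 was above Lmna, Krt80 above Krt18 and Krt18 above Des in all 3, whereas Vim was above Lmnb1 in 2 of 3 and level with it in replicate 1 (265 against 267). With the principal transcript as the length Lmna was above Lmnb1 in wild-type replicates 1 and 3. In AE9a-Ddit4-/- cells Vim (335 ± 118) was followed by Krt18 (232 ± 53.0), Lmnb1 (124 ± 36.4) and Lmna (45.7 ± 6.00). Krt18 was below Vim and above Lmnb1 in each knockout library, although the ranges of Krt18 and Vim overlapped. Krt8 (5.19 ± 2.72), Krt80 (4.56 ± 2.67), Des (2.27 ± 1.67) and Nes (2.25 ± 0.464) came next, with ranges that overlapped from each to the next, and Krt7 (0.843 ± 0.595) lay below Nes in every knockout library.

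Vim (ENSMUSG00000026728, chr2:13573927-13582826, plus strand) had the highest mean level per length of the 10 genes in both groups, although Lmnb1 was level with it in wild-type replicate 1. It was at 524, 620 and 439 CPM in wild type and 722, 541 and 950 CPM in knockout libraries. The groups overlapped, since knockout replicate 2 lay below wild-type replicate 2, and the log2 fold change of 0.48 (SE 0.25) did not pass the threshold. The level of Vim per length was 418, 311 and 537 times that of Krt18 in wild type and 1.27, 1.20 and 1.83 times in knockout libraries.

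Des (ENSMUSG00000026208, chr1:75360329-75368579, plus strand) was at 0.697, 0.987 and 0.480 CPM in wild type and 2.84, 8.46 and 1.55 CPM in knockout libraries. The groups did not overlap, but knockout replicate 2 held most of the Des counts, 514 against 177 and 114. The log2 fold change of 2.57 (SE 0.71) fell to 1.55 without that library, and the gene was then not called, nor without knockout replicate 1 (2.79), wild-type replicate 1 (2.54) or wild-type replicate 3 (2.34). The summed level of 9 muscle markers was 31.4, 27.5 and 16.6 CPM in wild type and 89.0, 158 and 41.8 CPM in knockout libraries. Knockout replicates 2, 1 and 3 fell in the same order for these markers as for Des. The wild-type order differed, with replicate 2 highest for Des and replicate 1 highest for the markers. Of the 7 muscle markers tested 2 were called higher (19.4% over all genes tested), Ckm among them (7.38 against 45.0 mean CPM). Myog was at 0 throughout, and the part of muscle cells in the Des values was not tested.

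Nes (ENSMUSG00000004891, chr3:87971078-87980451, plus strand) had 8, 6 and 0 counts in wild type and 345, 416 and 592 in knockout libraries. In CPM the knockout values were 5.54, 6.85 and 8.05, a spread of 1.45-fold, and all lay above the wild-type values of at most 0.127. Against the floor Nes was at least 37.0-fold higher. Summed over 7 endothelial markers the level was 15.04 to 34.5 CPM in wild type and 246 to 268 CPM in knockout libraries. Of the 6 tested, 5 were called higher and Vwf was called lower (19.4% and 10.7% over all genes tested). Emcn was at 0 in wild type and at most 32 counts in knockout. The highest knockout means in this list were those of Pecam1 (137 CPM), Egfl7 (70.8) and Tek (24.55), whereas Cdh5 was at 6.75. Neural markers, in contrast, summed to 5.39 to 11.4 against 2.98 to 3.86 CPM, with 1 of 3 tested higher, 1 lower, and Sox2 at most 2 counts in any library. The part of either cell type in the Nes values was not tested, and in bulk libraries a change in the number of cells and a change in RNA per cell cannot be told apart.

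Lmna (ENSMUSG00000028063, chr3:88480147-88509956, minus strand), which encodes the A-type lamins, was at 548, 90.4 and 254 CPM in wild type and 132, 135 and 110 CPM in knockout libraries. The wild-type libraries differed by 6.05-fold and the knockout libraries by 1.23-fold, and wild-type replicate 2 lay below every knockout library. The log2 fold change of -1.24 (SE 0.56) did not pass the threshold, but without wild-type replicate 2 it was -1.67 and the gene was called lower. Lmnb1 (ENSMUSG00000024590, chr18:56707813-56753424, plus strand), a B-type lamin, was at 330, 189 and 225 CPM in wild type and 106, 220 and 204 CPM in knockout libraries, with overlapping groups and a log2 fold change of -0.49 (SE 0.33). Lmna over Lmnb1 per length was 0.841, 0.243 and 0.574 in wild type and 0.633, 0.313 and 0.274 in knockout libraries, and these ranges overlapped.

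**Figure D3:**
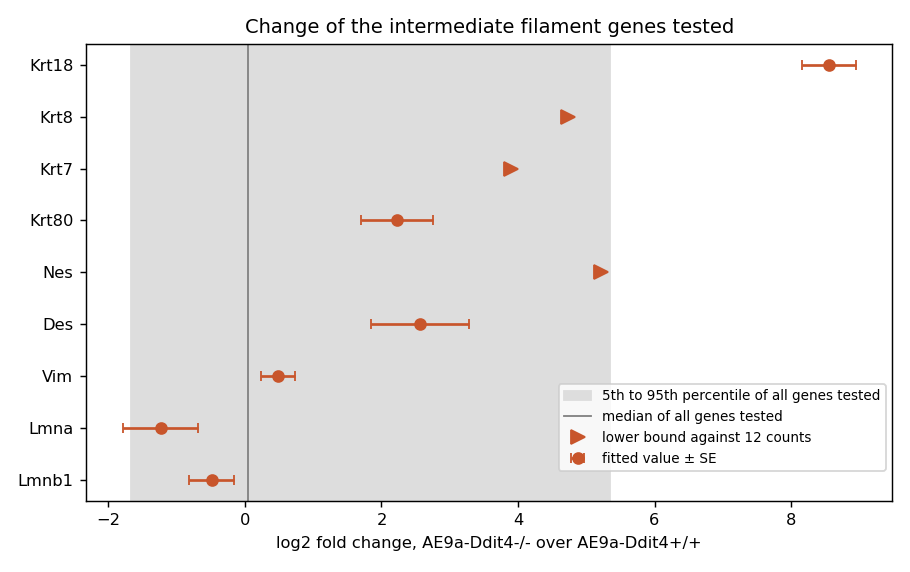
Points give the fitted log2 fold change (AE9a-Ddit4-/- over AE9a-Ddit4+/+) with its SE, and triangles give the lower bound for genes whose wild-type libraries were all at or under 12 counts. Krt18, at 8.55, was beyond the grey band that holds the middle of all genes tested (5th to 95th percentile, -1.67 to 5.34), and so were the fitted values of Krt7, Krt8 and Nes, which depend on the handling of 0 counts and are drawn at their bounds, whereas Krt80, Des, Vim, Lmna and Lmnb1 were within it.

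Most of the remaining keratins had no counts. Of 22 other type II keratins listed, 16 had 0 counts in every library and 2 were tested, and of 25 other type I keratins 22 had 0 counts and 1 was tested. The type II genes Krt83 (1.81 against 1.61 mean CPM) and Krt81 (0.196 against 0.374) did not pass, and 0 type II genes were past an unadjusted p of 0.05 in edgeR or called by DESeq2. Krt10, the type I keratin of suprabasal epidermis, fell from 1.82 ± 0.667 to 0.221 ± 0.122 CPM (SD, n = 3 each), which was -3.02 on the log2 scale (SE 0.63). Its knockout counts were 7, 12 and 26. Krt10 thus passed the filter on low counts through the wild-type libraries, and no p-value is given for it. Its direction was thus opposite to that of Krt18. In wild type its level per length was 2.28, 1.26 and 2.83, a mean of 2.12 ± 0.797, beside 2.42 ± 1.36 for Krt83 and 1.09 ± 0.295 for Krt80. Krt10 and Krt83 were above Krt80 in wild-type replicates 1 and 3 and below it in replicate 2. Krt222, a type I keratin gene of chromosome 11 that was outside these lists and is named after its values were seen, had 0 counts in each wild-type library and 130, 18 and 75 in knockout libraries. It was at least 6.16-fold higher, and at least 3.57-fold without knockout replicate 1. Krt222 passed the filter on low counts through the knockout libraries alone, so no p-value is given.

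Of 11 other intermediate filament genes 7 were tested, and 4 were higher and 2 lower (19.4% and 10.7% over all genes tested). Synm (synemin), a partner of desmin and vimentin, rose from 0.233 ± 0.150 to 7.67 ± 0.476 CPM (log2 fold change 5.04, SE 0.63). Its wild-type counts were 16, 5 and 24. Synm thus passed the filter on low counts through the knockout libraries, and no p-value is given for it. Sync (syncoilin), a muscle filament protein, had 1, 0 and 8 counts in wild type and 248, 134 and 418 in knockout libraries. This was at least 21.5-fold higher, and Sync passed the filter on low counts through the knockout libraries alone. Gfap, the filament of astrocytes, moved the other way: it was at 28.5, 18.3 and 33.6 CPM in wild type and 0.402, 0.214 and 0.326 CPM in knockout libraries, 85.3-fold lower in the mean (edgeR adjusted p 0.000244). Bfsp2, like Sync, passed that filter through the knockout libraries alone. Lmnb2 (32.1 against 65.3 mean CPM, edgeR adjusted p 0.0235) and Bfsp2, at least 6.95-fold higher, were lost without knockout replicate 3. There Bfsp2 was at least 3.86-fold higher and the count of higher genes fell to 2. Both Lmnb2 and Bfsp2 were also lost without knockout replicate 2, wild-type replicate 1 or wild-type replicate 3, and Bfsp2 without knockout replicate 1. Nefh, a neurofilament subunit, was lower (49.0 against 13.2 mean CPM, edgeR adjusted p 0.0346) although its groups overlapped, and it was lost without knockout replicates 1 or 2 or wild-type replicates 1 or 3.

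Proteins that tether filaments to one another, to other cytoskeletal systems or to junctions made up the next list. Of 16 linkers and desmosomal plaque genes 10 were tested, and 6 were higher and 0 lower (19.4% and 10.7% over all genes tested). The median log2 fold change was 1.44 against 0.04 over all genes. At an unadjusted p below 0.05 edgeR placed 7 higher and 0 lower, and DESeq2 with adjustment called 7 and 0. Dst (dystonin), a plakin that joins filaments to other cytoskeletal systems, rose from 1.03 ± 0.138 to 96.5 ± 28.3 CPM (log2 fold change 6.55, SE 0.32, edgeR adjusted p 0.000114). Fam83h, which binds keratins and casein kinase, rose from 0.104 ± 0.132 to 10.0 ± 0.881 CPM. Its wild-type counts were 16, 4 and 0. Fam83h thus passed the filter on low counts through the knockout libraries, and no p-value is given for it. Jup (plakoglobin) rose from 2.05 ± 0.716 to 60.8 ± 11.6 CPM (edgeR adjusted p 0.000293). Tchp, a keratin-binding protein, was at 14.5 against 37.2 mean CPM (edgeR adjusted p 0.007999). Dst, Fam83h, Jup and Tchp were called with every library left out in turn. Pkp4 (2.64 against 10.95 mean CPM, edgeR adjusted p 0.0392) was called in the fit that left out wild-type replicate 2 and in no other such fit, and Evpl (2.28 against 6.50, edgeR adjusted p 0.0387) in the fit without knockout replicate 2 alone. The desmosomal cadherins Dsg2 and Dsc2 had 0 counts in every library, and Dsp (desmoplakin) was at 0.202 against 0.458 mean CPM and did not pass.

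Partners of the lamins were all expressed. Of 18 such genes 18 were tested, and 0 were higher and 4 lower (19.4% and 10.7% over all genes tested). Their median log2 fold change was -0.43. At an unadjusted p below 0.05 edgeR placed 1 (Sun2) higher and 5 lower, and DESeq2 with adjustment called 1 and 4. Sun1, which links the lamina to the cytoskeleton, fell from 125 ± 45.6 to 26.4 ± 5.01 CPM (log2 fold change -2.25, SE 0.30, edgeR adjusted p 0.00212). Nrm (nurim), an inner nuclear membrane protein, fell from 123 ± 26.7 to 40.8 ± 10.3 CPM (edgeR adjusted p 0.00496), and Syne1 (nesprin-1), the outer membrane partner of Sun1, from 155 ± 3.05 to 83.0 ± 12.8 CPM (edgeR adjusted p 0.00910). Tmpo, which encodes the lamina-associated polypeptides, was lower (277 against 168 mean CPM, edgeR adjusted p 0.0274) but, with a library left out, was called when that was knockout replicate 2 and lost otherwise. Sun2 had every knockout library above wild type (130 against 213 mean CPM) and did not pass (edgeR adjusted p 0.0564), but was called higher without wild-type replicate 1.

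**Figure D4:**
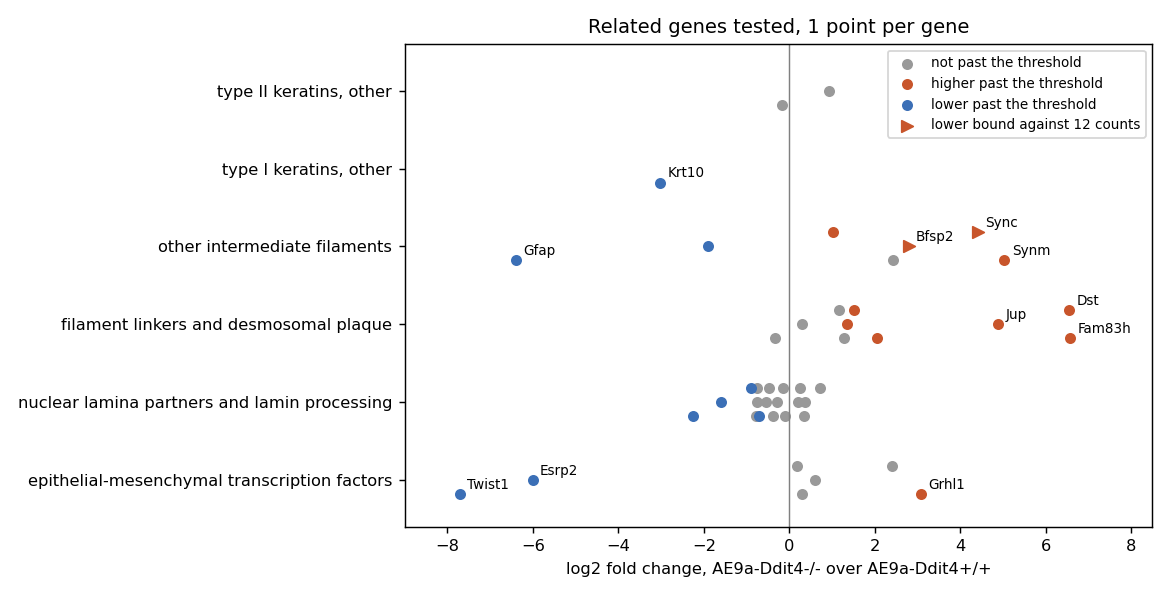
Each point is a tested gene, placed by its log2 fold change (AE9a-Ddit4-/- over AE9a-Ddit4+/+), or by its lower bound where shown as a triangle, with orange for higher, blue for lower and grey for not past the threshold. Filament linkers had 6 orange points and 0 blue, whereas lamina partners had 4 blue and 0 orange.

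Transcription and splicing factors of epithelial and mesenchymal states were sparse. Of 13 such genes 7 were tested, and 1 was higher and 2 lower (19.4% and 10.7% over all genes tested). Twist1, a mesenchymal factor, fell from 37.1 ± 8.89 to 0.178 ± 0.103 CPM, 209-fold lower in the mean. Its knockout counts of 8, 18 and 8 were about the floor of 12. Twist1 thus passed the filter on low counts through the wild-type libraries, and no p-value is given for it. Esrp2, an epithelial splicing regulator, fell from 46.6 ± 25.5 to 0.726 ± 0.193 CPM (64.2-fold lower, edgeR adjusted p 0.000749). Grhl1, an epithelial factor, rose from 0.390 ± 0.101 to 3.35 ± 1.43 CPM (edgeR adjusted p 0.00457). The epithelial genes Esrp2 and Grhl1 thus moved in opposite directions, the mesenchymal Twist1 was lower, and Zeb1, Zeb2 and Snai1 did not pass. Without wild-type replicate 2 Ovol1 was also called, which made 2 higher.

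Epithelial markers beside the keratins were low. The summed level of 14 markers was 10.2 to 18.8 CPM in wild type and 43.1 to 59.2 CPM in knockout libraries. Of 12 tested 5 were higher and 1 lower. For this and the next marker lists, the shares over all genes tested were 19.4% higher and 10.7% lower. Epcam, the epithelial adhesion molecule, was at 0.0422 against 12.2 mean CPM, Muc1 at 0.310 against 13.8 and Ocln (occludin) at 0.0264 against 6.46. Cdh1 (E-cadherin), however, was at 0.202 against 0.185 mean CPM, and Cldn3 had 0 counts in wild type and at most 39 in knockout. Of 6 mesothelial markers 2 of 3 tested were higher and 1 lower: Wt1 was at 6.22 against 0 mean CPM, Msln was at 0 throughout, and the sums of 5.14 to 8.61 and 3.38 to 7.55 CPM overlapped. Stromal markers summed to 7.08 to 14.2 against 163 to 184 CPM, with Pdgfrb at 1.18 against 154 mean CPM supplying most of it, 3 of 8 tested higher and 0 lower. Megakaryocyte markers summed to 103 to 169 against 2355 to 3254 CPM, with 8 of 10 higher and 1 lower. The part of any of these cell types in the keratin values was not tested.

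Genes around the Krt8 and Krt18 pair were examined because the higher keratins share a chromosomal region. Krt8 starts 23.7 kb from Krt18, Krt7 617 kb and Krt80 658 kb. Of 38 other genes tested within 1 Mb of the pair 14 were higher and 0 lower in edgeR, with a median log2 fold change of 0.85. Over all genes tested 19.4% were higher and 10.7% lower, with a median of 0.04. Among the neighbours edgeR placed 18 higher and 0 lower at an unadjusted p below 0.05, and DESeq2 called 16 and 0. Without wild-type replicate 3 the edgeR count of higher neighbours was 9. Some of the 14 neighbours passed the filter on low counts through the knockout libraries alone. Above an average log2 CPM of 4, 9 of 22 were higher, 0 were lower, and the median was 0.51. On the whole of chromosome 15, 112 of 344 such genes were higher and 16 lower, with a median of 0.39, and over the genome 1243 of 8218 were higher and 1400 lower, with a median of -0.17. Higher genes thus outnumbered lower ones on the whole chromosome as well as among the neighbours. The most abundant neighbour, Nr4a1, an orphan nuclear receptor, rose from 71.8 to 3565 mean CPM (log2 fold change 5.63, SE 0.62, edgeR adjusted p 0.00105). The nearest tested gene beside Krt18, Eif4b, a translation initiation factor, was at 0.33 on the log2 scale (SE 0.21) with an edgeR adjusted p of 0.278, and Pcbp2, an RNA-binding protein, at 0.16 (SE 0.18) with an edgeR adjusted p of 0.539. Krt81 and Krt83, between Krt7 and Krt8, did not pass.

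**Figure D5:**
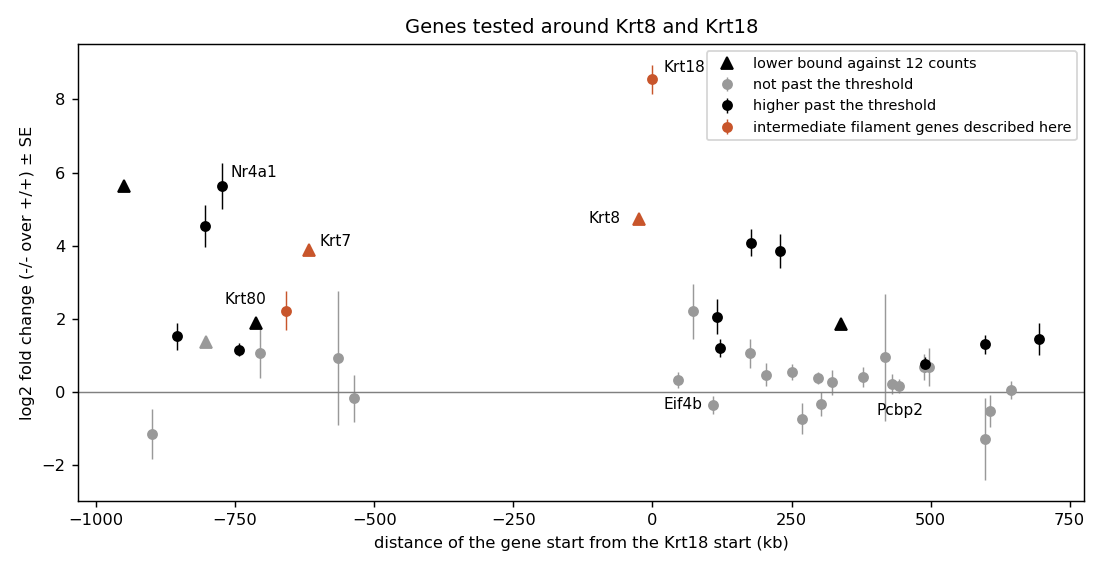
The plot shows log2 fold change with SE against the distance of each gene's start from the Krt18 start in kb, with triangles for lower bounds against 12 counts. Krt18 at 8.55 was plotted above every neighbour, and Eif4b next to it was at 0.33. Of the 38 other genes 14 were higher past the threshold (19.4% over all genes tested).

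The profiles most like that of Krt18 over the 6 libraries were found by the root mean square distance between centred log2(CPM + 0.5) values. Pof1b (0.225), Gcsam (0.232), Strc (0.278), Pear1 (0.282) and Ddx3y (0.282) were nearest of 18374 genes. Pof1b and Strc had 0 counts in every wild-type library, and Ddx3y is the Y-linked gene whose level separated the genotypes above. Nes came at place 493, Krt8 at 771, Krt7 at 1171, Krt80 at 1892, Des at 2310 and Vim at 5921, whereas Lmnb1 and Lmna were at 14402 and 16680. In wild type Krt18 was at 0.248 to 0.604 CPM, and Krt7, Krt8 and Nes were at most 0.127 CPM. These values were about or under the 0.5 added before the log, so the places of Krt7, Krt8 and Nes rest largely on knockout levels. For Vim the nearest were Itsn1 (0.0776), Pcdhga4 (0.0780), AI463229 (0.0813), B230369F24Rik (0.0913) and Hap1 (0.101), all below 5 CPM in every library. Pcdhga4, AI463229 and Hap1 reached at most 0.517 CPM, about the 0.5 added before the log, which flattens such low profiles. Their fitted log2 fold changes were 1.695, 1.895 and 1.944, against 0.48 for Vim. Among the 10 genes the nearest to Vim was Lmnb1 at place 12369.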

How the data were processed

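RNA was measured by sequencing in 3 AE9a-Ddit4+/+ and 3 AE9a-Ddit4-/- libraries, grouped by the genotype in the labels. The deposited table held raw read counts per gene made by the authors. The submitters' processing notes name GRCm38 and mm10. The aligner, the counter and the use of strand are not given in the sources used here, and the labels name an mRNA kit where the study's methods name a directional kit for RNA depleted of rRNA. Of the gene IDs 99.67% matched GENCODE M21, which gave positions and lengths.

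Counts as deposited were fitted with edgeR 4.0.16 in R 4.3.3 (filterByExpr, TMM factors, robust quasi-likelihood F-test, genotype only), with Benjamini-Hochberg adjustment over all 18375 genes tested and a threshold of 0.05. CPM used TMM-scaled totals, and errors are SD over 3 libraries. Totals of 62141558 to 72717681 counts and a floor of 12 counts set the precision for low genes, for counting error only. A fold against libraries at or under the floor is a lower bound.

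The 10 genes, the related lists and the markers were chosen with earlier results of these data known. Named genes were the 10 genes, Ddit4, at most 4 genes per direction of each related list with the largest fold among those past the threshold and with at least 10 counts in every library of a group, the 3 most abundant neighbours of Krt8 to Krt18 within 1 Mb, the 5 genes nearest to Krt18 and to Vim, and markers. Members outside this rule (Evpl, Tchp, Plec, Sun2, Ovol1, Krt81, Krt83, Dsp, Dsg2, Dsc2, Zeb1, Zeb2, Snai1) were named after their values were seen. Alternatives were other normalizations, filters, DESeq2 1.42.0, counts divided by 4, a threshold of 0.01, a replicate block, each library left out, and other lengths.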

Additional observations from a re-analysis of the deposited data

How the results depend on the processing

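For the 9 genes tested, 103 of 114 values under the alternatives kept their direction and side of the threshold, 10 (Krt80 and Des) were no longer past it, 1 (Lmna) became past it and 0 changed direction. For 36 named related, marker or neighbouring genes these numbers were 408 of 458, 40, 10 and 0. The same-numbered libraries had correlations of -0.24, -0.28 and -0.04 in their deviations from the group mean. Pairs of unlike number ran from -0.08 to 0.28. Deviations within such small groups are tied to one another, so these values cannot decide whether equal numbers mark a shared mouse or batch. With the replicate block 2964 genes were called in place of 5535, 4 of the 10 genes were higher, 1 other intermediate filament gene was lower in place of 2, and 8 neighbours were higher in place of 14. With at least 10 counts in every library 3 of the 10 genes were higher in place of 6, 0 type I keratins lower in place of 1, 1 other filament gene higher in place of 4, 1 lamina gene (Sun2) higher in place of 0, and 1 epithelial-mesenchymal factor lower in place of 2. That filter drops genes near 0 in a group. With no filter 1 type II keratin (Krt86) was lower in place of 0. With counts divided by 4 and with DESeq2, 1 lamina gene was higher in each. At an adjusted p below 0.01, 2676 genes were called, with 0 type I keratins lower, 2 other filament genes higher, 1 lower, and 9 neighbours higher. DESeq2 called 7097 genes.

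With each library left out in turn, 3840 to 6021 genes were called, 4 to 6 of the 10 genes were higher and 0 to 1 lower (Lmna without wild-type replicate 2). Type I keratins higher ran from 0 to 1 (Krt24 without knockout replicate 1) and type II keratins lower from 0 to 1 (Krt86 without wild-type replicate 3). Other filament genes higher ran from 2 (without knockout replicate 3) to 5, and lower from 1 to 2. Lamina genes higher ran from 0 to 1 (without wild-type replicate 1), epithelial-mesenchymal factors higher from 1 to 2 (without wild-type replicate 2), and neighbours higher from 9 (without wild-type replicate 3) to 15. The knockout mean of type I over type II was 23.7 per summed exon length, 15.7 per principal transcript length, a length chosen after seeing the data, and 8.30 by CPM. Lmna over Lmnb1 was 0.407, 0.722 and 0.801 on these scales, and Vim over Krt18 was 1.43, 3.10 and 4.73, so ratios between genes move with the length used. Where not stated, the cause was not tested. Genes under 12 counts in a group have no more than a bound.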
